A study of Mus musculus with 4 samples.

Results

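Patrolling, or non-classical, monocytes are blood monocytes that crawl along the inside of vessels and clear debris, and they are marked in mice by low Ly6c2, by Ace, which encodes angiotensin-converting enzyme, and by Treml4, a receptor that binds dying cells. They arise from Ly6c2-high classical monocytes in a step that needs the orphan nuclear receptor Nr4a1 (NUR77). The cells described here were searched for among immune cells of mouse brains that carried a breast tumour. A barcode was kept with at least 300 genes and at most 15% mitochondrial UMIs, where a UMI is 1 counted RNA molecule. It was then selected on its own counts: at least 2 of the 3 genes Ace, Treml4 and Gm9733 with a UMI, at most 4 UMIs of F13a1, at most 1 UMI of Cd209a and under 3 UMIs in all of Cd3d, Cd3e, Cd3g, Cd79a, Ms4a1 and Ncr1. These are called Ace/Treml4 cells below. The rule found 266 among 6453 kept immune barcodes of SCDi mice and 274 among 6959 of CTRL mice, which makes 540 of the 13412 kept immune barcodes and of the 29760 kept in the whole series.

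Female immunocompetent C57BL/6 mice received GFP-expressing EO771 cells, a mouse mammary cancer line, inside the skull, and were given SCDi, which by the title targets the stearoyl-CoA desaturase SCD, or vehicle (CTRL) for 14 days. The compound's name and dose were not stated in the material used. For each treatment, 3 brains went into 1 pool, from which DAPI-negative cells were sorted as immune (CD45+, GFP-) or tumour (CD45-, GFP+), and a 10x 3′ library was made from every sort. All cells share this tumour and the dissociation of the brain. With 1 immune library a treatment, no p-value is given, and all intervals are 95% intervals that cover counting error alone, not the spread between mice. Kept barcodes held a median of 17023 UMIs in the SCDi library and 15737 UMIs in the CTRL library. The Ace/Treml4 cells held medians of 16009 UMIs in SCDi and 15742 UMIs in CTRL. The immune libraries shared 14 cell barcodes of the 6777 deposited for SCDi and 7332 deposited for CTRL, and no Ace/Treml4 cell was among them.

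The Ace/Treml4 cells made up 4.12% of kept immune barcodes in SCDi (3.65 to 4.64) and 3.94% in CTRL (3.49 to 4.42), a difference of 0.18 percentage points (-0.48 to 0.86). Classical monocytes, taken as barcodes with at least 3 UMIs each of Ly6c2 and Chil3, made up 32.4% in SCDi and 25.2% in CTRL. Per 100 classical monocytes outside the selection there were 13.4 Ace/Treml4 cells in SCDi and 16.7 in CTRL, a ratio of 0.80 (0.67 to 0.97), or -0.32 on the log2 scale. That was -0.19 (-0.53 to 0.16) with F13a1 at 0 and -0.25 (-0.59 to 0.08) without cells that meet the classical rule, and both of these intervals include 0. The classical rule sets fixed UMI limits on genes that differed between the libraries. Classical monocytes outside the selection held a mean of 47.2 Ly6c2 UMIs in SCDi and 32.9 in CTRL. For Chil3 the mean was 45.2 in SCDi and 57.9 in CTRL. The part of these genes in the ratio per classical monocyte was not tested. None of the 16348 kept barcodes of the tumour sort met the rule, which allows a share of up to 0.018%. T cells, taken as barcodes with at least 3 summed UMIs of Cd3d, Cd3e and Cd3g and none of Csf1r and Adgre1, served as a gauge of free RNA. They may understate it, since barcodes with Csf1r or Adgre1 UMIs were left out and T cells had lower median depths. None of the 148 T cells of SCDi and the 269 of CTRL had UMIs of 2 of the 3 genes, which allows up to 2.03% in SCDi and 1.12% in CTRL.

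The selected cells were not of 1 kind. Ace was detected in 155 of the 266 SCDi cells (58.3%, 52.1 to 64.3) and in 204 of the 274 CTRL cells (74.5%, 68.9 to 79.5), a difference of -16.2 points (-23.9 to -8.23). The remaining 111 SCDi cells (41.7%) and 70 CTRL cells (25.5%) entered through Treml4 and Gm9733 without Ace. All 3 genes were found in 74 SCDi and 86 CTRL cells, Ace with Treml4 but not Gm9733 in 45 SCDi and 67 CTRL cells, and Ace with Gm9733 but not Treml4 in 36 SCDi and 51 CTRL cells. Since these 3 genes chose the cells, these counts describe the selection. Counted against classical monocytes, the Ace-positive cells stood at 7.62 per 100 in SCDi and 12.2 per 100 in CTRL, a ratio of 0.62 (0.50 to 0.78). Those without Ace stood at 5.42 per 100 in SCDi and 4.04 per 100 in CTRL, a ratio of 1.34 (0.98 to 1.85). As a share of all kept barcodes, Ace-positive cells were 2.40% in SCDi and 2.93% in CTRL, a difference of -0.53 points (-1.08 to 0.02). By the detection of these selecting genes, the libraries thus held like numbers of selected cells in a different mix. Gm9733 was also higher in SCDi in classical monocytes outside the selection, with a mean of 2.14 UMIs in SCDi and 1.26 in CTRL. Its part in the mix was not tested. SCDi and CTRL are therefore compared below over all Ace/Treml4 cells and, for the main results, over the Ace-positive ones.

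**Figure D1:**
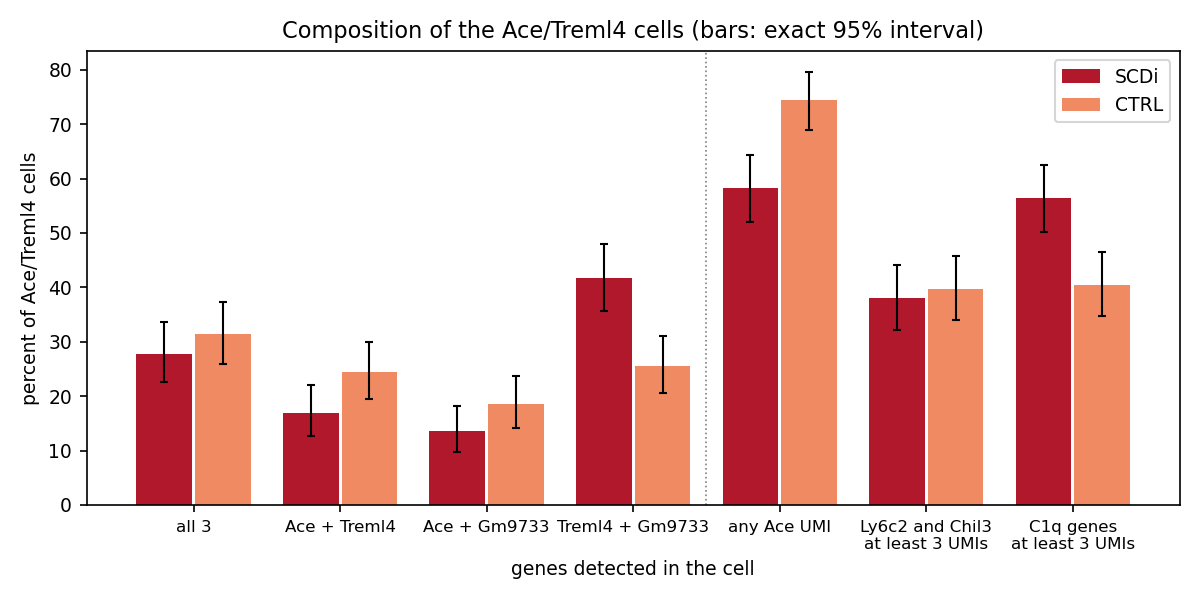
Share of Ace/Treml4 cells (y axis, percent) in SCDi and CTRL that carry each combination of the 3 selecting genes (left of the dotted line) or meet a further criterion (right of it); bars are exact 95% intervals. Cells with Treml4 and Gm9733 but no Ace made up 41.7% in SCDi and 25.5% in CTRL, and cells with any Ace UMI 58.3% in SCDi and 74.5% in CTRL.

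Of the selecting genes, Ace (chromosome 11, 105967945 to 105989964, plus strand, mm10) had 91.5 CPM in SCDi cells, against 138 CPM in CTRL cells, where CPM is UMIs of the gene per 1000000 UMIs summed over the cells of a class. Among the Ace-positive cells the Ace level was 172 CPM in SCDi cells, against 196 CPM in CTRL cells. Treml4 (chromosome 17, 48264295 to 48275360, plus strand) had 91.0 CPM in SCDi cells, against 141 CPM in CTRL cells. Gm9733 (chromosome 3, 15296551 to 15332302, minus strand) went the other way, with 121 CPM in SCDi cells, against 93.3 CPM in CTRL cells. Classical monocytes outside the selection held 3.48 CPM in SCDi against 8.67 CPM in CTRL for Ace and 5.22 CPM in SCDi against 10.3 CPM in CTRL for Treml4, but 82.4 CPM in SCDi against 49.7 CPM in CTRL for Gm9733. Gm9733 was seen in 56.3% of SCDi and 45.3% of CTRL classical monocytes, against 0.676% of SCDi and 0.743% of CTRL T cells. It lies beside near-identical Sirpb1 genes, so its count is uncertain. Against classical monocytes the log2 ratio of Treml4 was 4.12 in SCDi and 3.78 in CTRL, while that of Gm9733 was 0.55 in SCDi and 0.91 in CTRL. These ratios follow from the selection.

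The label of non-classical monocyte was set beside 16 genes that the rule did not use. These were chosen with earlier results of these data known, so they are no independent check. Classical monocytes here leave out those that were also Ace/Treml4 cells. All 16 were higher in Ace/Treml4 cells than in classical monocytes in both libraries, with a median log2 ratio of 1.56 in SCDi and 1.64 in CTRL, whereas 33.3% of all 9628 genes with at least 5 CPM were higher in both. The strongest were Ear2, a secreted ribonuclease whose count is uncertain because of near-identical paralogs, and Adgre4, an adhesion receptor of the EGF-TM7 family. Ear2 had 76.0 CPM in SCDi against 127 CPM in CTRL in Ace/Treml4 cells and 5.16 CPM in SCDi against 11.8 CPM in CTRL in classical monocytes. Adgre4 had 147 CPM in SCDi against 256 CPM in CTRL in Ace/Treml4 cells and 12.3 CPM in SCDi against 22.4 CPM in CTRL in classical monocytes, a log2 ratio of 3.58 (3.43 to 3.74) in SCDi and 3.51 (3.39 to 3.63) in CTRL. Adgre4 was detected in 56.8% of SCDi and 67.2% of CTRL Ace/Treml4 cells, against 0 of 148 SCDi T cells, which allows up to 2.03%, and 0.743% of CTRL T cells. Their promoters are shown because these genes set the selected cells apart most clearly, and because C/EBP-beta, encoded by Cebpb, is needed for these monocytes in mice. The sequences run 5′ to 3′ on the plus strand from 250 bases before to 50 bases after the RefSeq start in GRCm38.p6, Adgre4 at chr17:55749734-55750033 and Ear2 at chr14:44102404-44102703, with motif matches in capitals.
Adgre4: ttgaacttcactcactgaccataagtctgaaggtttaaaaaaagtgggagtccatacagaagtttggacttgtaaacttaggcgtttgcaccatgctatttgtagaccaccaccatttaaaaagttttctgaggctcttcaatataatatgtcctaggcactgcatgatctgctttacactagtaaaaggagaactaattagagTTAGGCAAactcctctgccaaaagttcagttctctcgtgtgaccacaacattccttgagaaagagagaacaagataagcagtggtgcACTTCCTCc
Ear2: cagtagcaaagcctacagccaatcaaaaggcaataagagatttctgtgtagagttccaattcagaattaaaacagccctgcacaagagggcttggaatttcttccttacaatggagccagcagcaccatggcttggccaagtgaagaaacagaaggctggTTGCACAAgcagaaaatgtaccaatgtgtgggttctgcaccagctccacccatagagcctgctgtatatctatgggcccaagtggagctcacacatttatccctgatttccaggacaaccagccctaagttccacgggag
The capitals in Ear2 and the first in Adgre4 match TTGCNNAA, a core of the C/EBP site, 90 bases before the start of Ear2 and, on the minus strand, 46 bases before that of Adgre4. The second in Adgre4 matches GAGGAAGT, a PU.1 site, on the minus strand 41 bases after the start. RefSeq promoters were at hand for 15 of the 19 selecting and non-classical genes. With both strands searched, TTGCNNAA was in 2 of the 15 and in 10.8% of all 32851 promoters, GAGGAAGT in 2 of the 15, Adgre4 and Fcgr4, and in 3.20% of all, and AAAGGTCA, the NR4A site, in 0 of the 15 and in 1.51% of all. A match here describes these letters, not a bound site.

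Nr4a1, Klf2, Pou2f2, Cebpb and Hes1, transcription factors of this lineage, are among the same 16 genes. Nr4a1 stood at 251 CPM in SCDi against 329 CPM in CTRL in Ace/Treml4 cells and 87.8 CPM in SCDi against 106 CPM in CTRL in classical monocytes, a log2 ratio of 1.51 (1.43 to 1.60) in SCDi and 1.63 (1.55 to 1.71) in CTRL. It is also 1 of 18 immediate early and dissociation genes, and the highest of them in both libraries. Of those 18, 5 were higher in both libraries, against 33.3% of all genes, and 7 lower, against 36.2%. The part of dissociation in the Nr4a1 level was not tested. Klf2, a quiescence and trafficking factor, stood at 227 CPM in SCDi against 389.7 CPM in CTRL in Ace/Treml4 cells and 105 CPM in SCDi against 172 CPM in CTRL in classical monocytes. Pou2f2 (OCT2) stood at 264 CPM in SCDi against 288 CPM in CTRL in Ace/Treml4 cells and 134 CPM in SCDi against 112 CPM in CTRL in classical monocytes. Cebpb was abundant in all 4 groups and separated them little, with log2 ratios of 0.22 in SCDi and 0.34 in CTRL. Of 24 factors of the monocyte lineage, 16 were higher in Ace/Treml4 cells in both libraries, against 33.3% of all genes, and 6 lower, against 36.2%. Hes1, a Notch target, and Nr4a1 were the highest.

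Of 21 genes of adhesion, homing and patrolling, 12 were higher in Ace/Treml4 cells in both libraries, against 33.3% of all genes. Another 6 were lower, against 36.2% of all genes. Itgal, Spn, Cx3cr1 and Fcgr4, given next, are among the 16 non-classical genes above. Itgal, the alpha chain of the integrin LFA-1, stood at 233 CPM in SCDi against 334 CPM in CTRL in Ace/Treml4 cells and 82.1 CPM in SCDi against 107 CPM in CTRL in classical monocytes. Spn, which encodes CD43, had log2 ratios of 1.90 in SCDi and 1.55 in CTRL. S1pr5, a receptor for egress from bone marrow, was low but stood apart, at 9.54 CPM in SCDi against 12.9 CPM in CTRL in Ace/Treml4 cells and 0.889 CPM in SCDi against 1.37 CPM in CTRL in classical monocytes. Cx3cr1, the fractalkine receptor, separated the classes in CTRL, with a log2 ratio of 0.74 (0.62 to 0.85), while in SCDi the ratio over all cells was 0.03 (-0.10 to 0.17). In SCDi it was 0.64 (0.48 to 0.79) without the highest doublet scores and 0.23 (0.05 to 0.39) among Ace-positive cells. Fcgr4, the Fc receptor used as a surface marker of these cells, separated them little, at 0.11 in SCDi and 0.39 in CTRL.

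**Figure D2:**
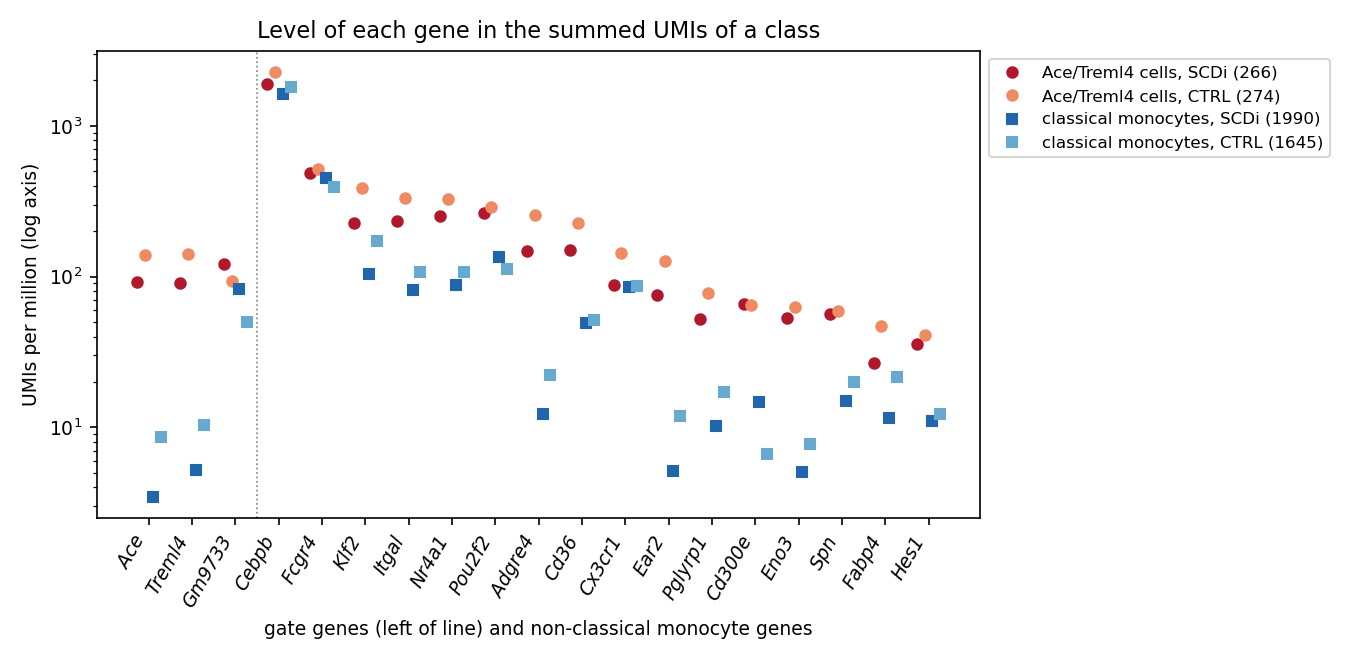
UMIs per 1000000 UMIs, CPM (y axis, log scale) of the 3 selecting genes, left of the dotted line, and of 16 non-classical monocyte genes in Ace/Treml4 cells and classical monocytes of SCDi and CTRL; each point is 1 summed class with its number of cells in the legend. The circles lie above the squares of the same library for every gene, narrowly for Cebpb, Fcgr4 and, in SCDi, Cx3cr1.

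The cells also carried RNA of other states. Of 15 classical monocyte genes outside the rule, 3 were higher in Ace/Treml4 cells in both libraries and 9 lower. Over all genes, 33.3% were higher in both and 36.2% lower. The 15 genes had a median log2 ratio of -0.24 in SCDi and -0.20 in CTRL. Ccr2, the receptor that draws classical monocytes into tissue, stood at 485 CPM in SCDi against 608 CPM in CTRL in Ace/Treml4 cells and 557 CPM in SCDi against 698 CPM in CTRL in classical monocytes. Fn1, which encodes fibronectin, had the lowest ratio of the list, at -1.41 in SCDi and -0.90 in CTRL. The classical rule itself was met by 101 of the 266 SCDi cells and 109 of the 274 CTRL cells. Macrophage markers were lower in Ace/Treml4 cells, with 1 of 15 higher in both libraries and 14 lower, against 36.2% of all genes lower. Their medians were -0.57 in SCDi and -0.63 in CTRL. At least 3 summed UMIs of the complement genes C1qa, C1qb and C1qc were found in 56.4% of SCDi and 40.5% of CTRL Ace/Treml4 cells. Among the classical monocytes outside the selection, with which the macrophage markers were compared, it was 66.3% in SCDi and 59.0% in CTRL. The same was found in 41.2% of SCDi and 36.1% of CTRL T cells, whose median depths were lower, at 10644.5 UMIs in SCDi and 12429 UMIs in CTRL. Some of these C1q UMIs may be free RNA, and their part in the results below was not tested.

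The Ace-positive cells were higher than the others in most non-classical genes, but also in more classical genes than not. Against cells that entered without Ace, 15 of the 16 non-classical genes were higher in both libraries, and so were 29.1% of all 9768 genes with at least 5 CPM. The 16 genes had a median log2 ratio of 1.87 in SCDi and 1.69 in CTRL. Of 15 classical monocyte genes, 9 were higher in both libraries and 3 lower, with medians of 0.29 in SCDi and 0.44 in CTRL. The classical rule was met by 36.8% of Ace-positive SCDi cells and 39.6% of SCDi cells without Ace. In CTRL it was met by 42.2% of Ace-positive cells and 32.9% of those without Ace. Nr4a1 stood at 388 CPM in SCDi against 409 CPM in CTRL in Ace-positive cells and 95.7 CPM in SCDi against 136 CPM in CTRL in those without Ace. Adgre4 stood at 249.7 CPM in SCDi against 329 CPM in CTRL in Ace-positive cells and 31.7 CPM in SCDi against 79.3 CPM in CTRL in those without. In the other direction, C1qa stood at 859 CPM in SCDi against 868 CPM in CTRL in Ace-positive cells and 1877 CPM in SCDi against 1675 CPM in CTRL in those without. H2-Aa, a chain of MHC class II, stood at 1533 CPM in SCDi against 1378 CPM in CTRL in Ace-positive cells and 3359 CPM in SCDi against 3285 CPM in CTRL in those without. Since the cells without Ace were low in most genes of the label, the whole group is called by its selecting genes.

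Across all genes with at least 50 CPM, 47 of 3589 (1.31%) were at least 2-fold higher in Ace/Treml4 cells than in classical monocytes in both libraries and 29 (0.808%) at least 2-fold lower. Beside the genes above, the highest included Slc12a2, the Na-K-Cl cotransporter, with log2 ratios of 2.91 in SCDi and 3.55 in CTRL. Cd36, a scavenger and fatty acid receptor, had 1.60 in SCDi and 2.15 in CTRL. Others were Hpgd, which breaks down prostaglandins, at 1.69 in SCDi and 2.27 in CTRL, Rap1gap2, which turns off the GTPase RAP1, at 1.73 in SCDi and 2.30 in CTRL, and Cd300e, an activating receptor, at 2.16 in SCDi and 3.28 in CTRL. Cd36 and Cd300e are among the 16 non-classical genes. S100a8 and S100a9, the calprotectin subunits, were also among the highest, at 2.32 in SCDi and 3.80 in CTRL for S100a9. That level came from few cells. S100a9 was seen in 6.39% of SCDi and 4.38% of CTRL cells, and 1 cell held 29.7% of its UMIs in SCDi and 55.6% in CTRL. Without the 20 SCDi and 15 CTRL cells that had at least 10 UMIs of neutrophil markers, a limit that itself counts S100a9, its log2 ratio was -5.14 in SCDi and -4.07 in CTRL.

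The genes lowest in Ace/Treml4 cells were mostly lymphocyte genes such as Ctla4, Nkg7 and Gzma. The selection of Ace/Treml4 cells limits lymphocyte UMIs while the classical rule does not, and with classical monocytes held to the same limit 14 genes were at least 2-fold lower in both libraries. Of the named genes with no known lymphocyte role, Timp1, an inhibitor of matrix proteases, stood at 25.6 CPM in SCDi against 31.9 CPM in CTRL in Ace/Treml4 cells and 80.0 CPM in SCDi against 118 CPM in CTRL in classical monocytes. Gpnmb, a glycoprotein of lipid-laden macrophages, stood at 38.5 CPM in SCDi against 65.2 CPM in CTRL in Ace/Treml4 cells and 209 CPM in SCDi against 206 CPM in CTRL in classical monocytes. Of 18 genes of MHC class I presentation, 14 were lower in Ace/Treml4 cells in both libraries, against 36.2% of all genes. Their medians were -0.08 in SCDi and -0.12 in CTRL. Of 23 type I interferon genes with at least 5 CPM, 22 were lower in both libraries, against 36.2% of all genes, with medians of -0.22 in SCDi and -0.37 in CTRL. MHC class II went the other way, with 10 of 13 higher in both libraries, against 33.3% of all genes, and medians of 0.56 in SCDi and 0.25 in CTRL. Among Ace-positive cells that direction was lost, with medians against classical monocytes of 0.028 in SCDi and -0.05 in CTRL. In SCDi it was also -0.17 with all 3 selecting genes, -0.07 with under 3 Ly6c2 UMIs and -0.27 with under 3 C1q UMIs.

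Between SCDi and CTRL, the non-classical genes were lower in SCDi over all Ace/Treml4 cells. Of the 16 genes, 15 were lower in SCDi, with a median log2 ratio of SCDi over CTRL of -0.45. Over all 9302 genes with at least 5 CPM, 53.7% were higher in SCDi and the median was 0.02. Adgre4 had 147 CPM in SCDi cells, against 256 CPM in CTRL cells, a log2 ratio of -0.79 (-0.92 to -0.67). Klf2 had 227 CPM in SCDi cells, against 389.7 CPM in CTRL cells, at -0.78 (-0.88 to -0.68), and Ear2 76.0 CPM in SCDi cells, against 127 CPM in CTRL cells, at -0.75 (-0.92 to -0.57). Cx3cr1 had 87.8 CPM in SCDi cells, against 144 CPM in CTRL cells, at -0.71 (-0.88 to -0.55). The Cx3cr1 ratio was -0.38 (-0.57 to -0.19) without the highest doublet scores, -0.05 (-0.33 to 0.22) with under 3 Ly6c2 UMIs and 0.24 (0.02 to 0.46) with the rule applied after thinning to 5000 UMIs. Nr4a1 had 251 CPM in SCDi cells, against 329 CPM in CTRL cells, at -0.39 (-0.49 to -0.29). Spn at -0.06 (-0.29 to 0.16), Hes1 at -0.20 (-0.48 to 0.08) and Cd300e at 0.03 (-0.18 to 0.24) had intervals that include 0.

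The difference was smaller among Ace-positive cells. There 10 of the 16 genes were lower in SCDi and the median was -0.24, while 55.2% of all 9242 genes were higher in SCDi. Nr4a1 then had 388 CPM in SCDi cells, against 409 CPM in CTRL cells, at -0.08 (-0.19 to 0.03). Adgre4 had 249.7 CPM in SCDi cells, against 329 CPM in CTRL cells, at -0.40 (-0.53 to -0.27), Klf2 -0.48 (-0.60 to -0.37) and Cx3cr1 -0.63 (-0.84 to -0.43), and these 3 intervals lay below 0. Eno3, the muscle type of enolase, was at 0.08 (-0.16 to 0.32) and Pou2f2 at 0.02 (-0.10 to 0.15) among Ace-positive cells. With selected cells limited to under 3 UMIs of Ly6c2 the median of the 16 genes was -0.04, over 100 SCDi and 112 CTRL cells. With the whole rule applied after every barcode was thinned to 5000 UMIs it was -0.06. There the limits on F13a1, Cd209a and lymphocyte genes stayed the same but were set against thinned counts. The ratios used the full counts of the cells so chosen, so this is not a control for depth alone. Classical monocytes themselves had 13 of the 16 genes lower in SCDi, with a median of -0.33, and Adgre4 at -0.87 (-1.01 to -0.72). Of all 9378 genes with at least 5 CPM in classical monocytes, 45.1% were higher in SCDi and the median was -0.02. The direction over the 16 genes was thus the same in both classes.

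**Figure D3:**
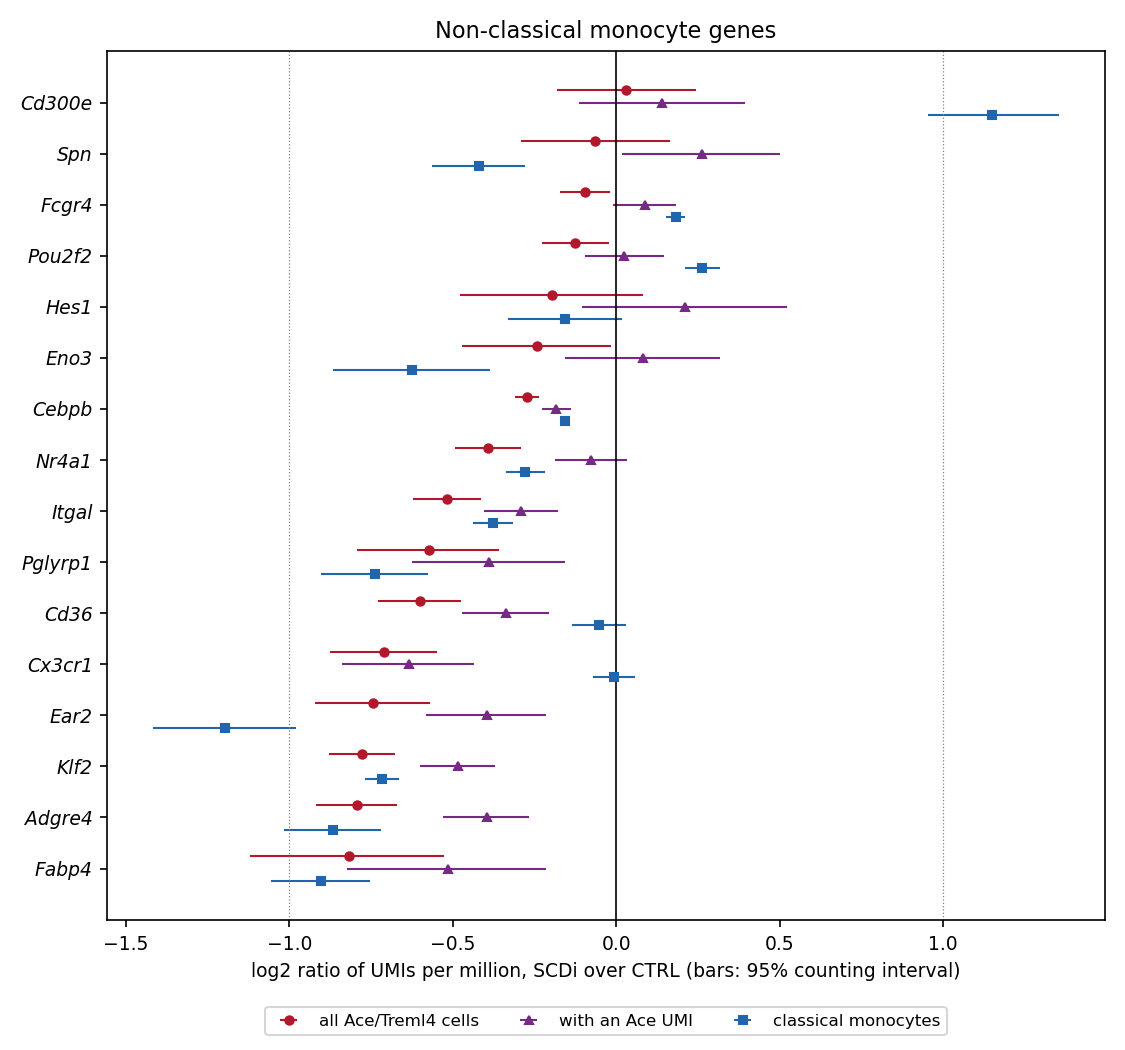
Log2 ratio of CPM, SCDi over CTRL (x axis), for 16 non-classical monocyte genes in all Ace/Treml4 cells, in Ace-positive ones and in classical monocytes; bars are 95% counting intervals and dotted lines mark 2-fold. All but Cd300e lie left of 0 in all Ace/Treml4 cells, and 10 of the 16 do in the Ace-positive ones.

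Ly6c2, the marker that is low on patrolling monocytes, had 1182 CPM in SCDi cells, against 585 CPM in CTRL cells, a log2 ratio of 1.02 (0.95 to 1.08). In Ace-positive cells it had 898 CPM in SCDi cells, against 599 CPM in CTRL cells, at 0.58 (0.50 to 0.66), and in classical monocytes 1813 CPM in SCDi against 1298 CPM in CTRL, at 0.48 (0.47 to 0.50). It was detected in a like share of cells, 78.6% in SCDi and 79.6% in CTRL, but the median cell held 7 UMIs in SCDi and 5 in CTRL, and the 75th percentile was 34.75 UMIs in SCDi and 13.75 in CTRL. Chil3, also called Ym1, went the other way, with 843 CPM in SCDi cells, against 1154 CPM in CTRL cells. Scd2, an isoform of the drug's target, had 31.3 CPM in SCDi cells, against 19.2 CPM in CTRL cells, at 0.70 (0.35 to 1.06). In classical monocytes it had 31.7 CPM in SCDi against 19.2 CPM in CTRL. Scd1 was at 0.883 CPM in SCDi against 0.544 CPM in CTRL and too low to compare.

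Only 11 of 3430 genes with at least 50 CPM (0.321%) were 2-fold higher in SCDi over all Ace/Treml4 cells and 6 (0.175%) 2-fold lower. Osteopontin and 2 chemokine genes led the higher ones. Spp1, which encodes osteopontin, had 946 CPM in SCDi cells, against 297 CPM in CTRL cells, at 1.67 (1.59 to 1.75), and in Ace-positive cells 1.94 (1.83 to 2.05). Ccl7 had 526 CPM in SCDi cells, against 180.3 CPM in CTRL cells, at 1.54 (1.44 to 1.65), and Ccl2 560.5 CPM in SCDi cells, against 246 CPM in CTRL cells, at 1.19 (1.09 to 1.28), both ligands of CCR2. In classical monocytes these 3 were at 0.45 for Spp1, 0.25 for Ccl7 and 0.32 for Ccl2. Single cells weighed on these sums, since 1 SCDi cell held 20.4% of the Ccl7 UMIs and 1 CTRL cell 11.6%. Among cells with under 3 UMIs of Ly6c2, Spp1 was at 1.75, Ccl2 at 0.64 and Ccl7 at 0.14. Thinned to 5000 UMIs before selection, Ccl7 was at -0.63 and Spp1 at 3.94.

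Of the other genes among the 10 highest, the receptor Slamf9 had 129 CPM in SCDi cells, against 59.8 CPM in CTRL cells, at 1.10 (0.92 to 1.30), and Lpl, which encodes lipoprotein lipase, 66.2 CPM in SCDi cells, against 31.0 CPM in CTRL cells, at 1.09 (0.83 to 1.37). Both were about as much higher in classical monocytes, at 0.91 for Slamf9 and 1.05 for Lpl. Socs1, an inhibitor of cytokine signalling, had 66.2 CPM in SCDi cells, against 32.2 CPM in CTRL cells, at 1.04 (0.78 to 1.30), and 0.91 in Ace-positive cells. The receptor Clec5a was at 1.06 (0.81 to 1.32) and Lmna, which encodes lamin A and C, at 1.08 (0.79 to 1.37). Ccl8 and Saa3 depended on the cells taken. Ccl8 was at 1.08 over all Ace/Treml4 cells and 1.57 in Ace-positive ones, but at -1.10 in cells with under 3 C1q UMIs, and 1 cell held 26.0% of its UMIs in SCDi and 32.3% in CTRL. Saa3 was at 1.04 over all and -0.70 in Ace-positive cells.

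Of 20 genes of adhesion, homing and patrolling, 6 were higher in SCDi, against 53.7% of all genes, with a median of -0.09. The lowest of them was Pecam1, the adhesion molecule CD31, which had 55.5 CPM in SCDi cells, against 117 CPM in CTRL cells, at -1.08 (-1.28 to -0.88), and -1.03 (-1.28 to -0.79) in Ace-positive cells. Trf, which encodes transferrin, had 72.1 CPM in SCDi cells, against 149 CPM in CTRL cells, at -1.05 (-1.23 to -0.88), and -0.95 (-1.17 to -0.73) in Ace-positive cells. Ceacam1, an adhesion receptor, had 29.5 CPM in SCDi cells, against 62.5 CPM in CTRL cells, at -1.08 (-1.36 to -0.81), and Hpgd 50.5 CPM in SCDi cells, against 111 CPM in CTRL cells, at -1.13 (-1.34 to -0.93). Hpgd was at -0.56 and Ceacam1 at -0.78 in Ace-positive cells. Krt80, Tnip3, Btg3 and Plcb1 were lower too, from -1.13 for Krt80 to -0.92 for Plcb1. All 8 of these genes were also lower in SCDi in classical monocytes, from -0.68 for Krt80 to -0.48 for Ceacam1. Sparc, at -0.97, a microglia marker, was at 2.22 with C1q under 3 UMIs. Vcam1 had the lowest ratio, -1.48, but 1 CTRL cell held 61.5% of its CTRL UMIs, and in Ace-positive cells it was at 1.53.

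**Figure D4:**
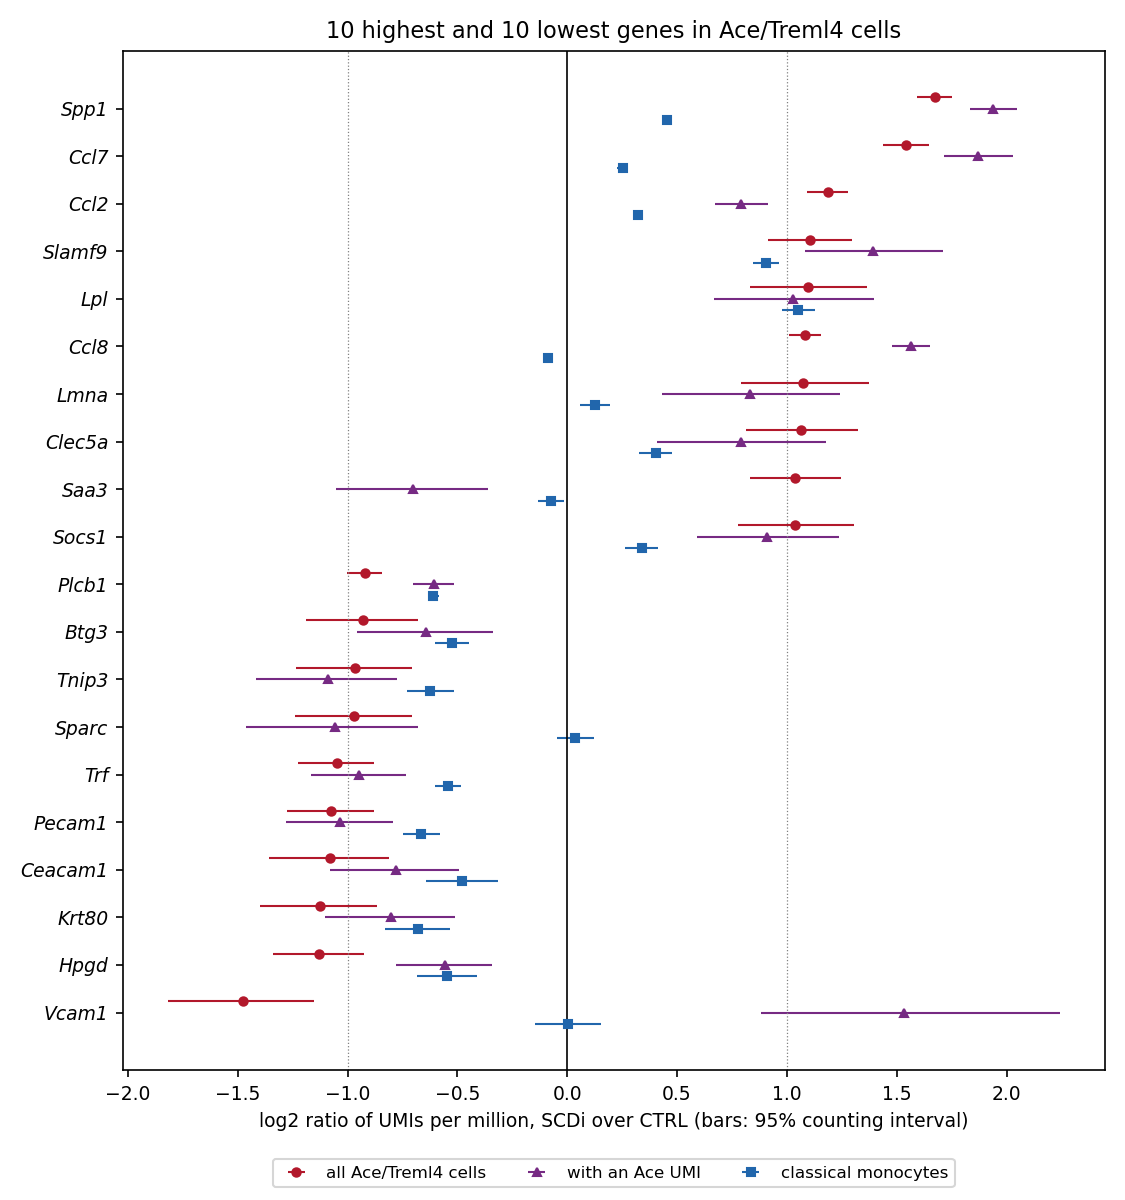
Log2 ratio of CPM, SCDi over CTRL (x axis), of the 10 highest and 10 lowest genes of all Ace/Treml4 cells, with the same genes in Ace-positive cells and in classical monocytes; bars are 95% counting intervals. Saa3 and Vcam1 lie on the other side of 0 in Ace-positive cells, and Spp1, Ccl7, Slamf9 and Ccl8 lie further right there.

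Interferon genes were higher in SCDi. Of the 23 type I interferon genes, 22 were higher in SCDi over all Ace/Treml4 cells, with a median log2 ratio of 0.33, against 53.7% and 0.02 for all genes. Oas1a, a sensor enzyme of double-stranded RNA, had 106 CPM in SCDi cells, against 65.4 CPM in CTRL cells, at 0.69 (0.50 to 0.88), and Irf7, a factor that amplifies interferon production, 731 CPM in SCDi cells, against 490.2 CPM in CTRL cells, at 0.58 (0.51 to 0.65). Isg15, a ubiquitin-like modifier, had 1556 CPM in SCDi cells, against 1237 CPM in CTRL cells, at 0.33 (0.29 to 0.38), but in Ace-positive cells 1286 CPM in SCDi cells, against 1289.6 CPM in CTRL cells. Among Ace-positive cells 19 of 23 were higher, against 55.2% of all genes there, and the median was 0.23. In classical monocytes 21 of 23 were higher with a median of 0.15, against 45.1% of all genes there. With Ly6c2 under 3 UMIs the median was 0.20, and with thinning before selection 0.12. Of 18 genes of MHC class I presentation, 17 were higher in SCDi, against 53.7% of all genes, with a median of 0.11. The highest was the proteasome activator gene Psme2 at 0.45 (0.37 to 0.54). In Ace-positive cells 10 of the 18 were higher, a share like the 55.2% of all genes there. Among Ace-positive cells 8 of 13 MHC class II genes were higher, against 55.2% of all genes. Over all Ace/Treml4 cells 10 of the 13 were higher, against 53.7% of all genes, with a median of 0.17. That median was -0.33 with under 3 Ly6c2 UMIs, -0.10 with all 3 selecting genes and -0.036 with under 3 C1q UMIs. Of 14 interferon gamma response genes, 11 were higher, against 53.7% of all genes, with a median of 0.11. Cxcl10 went the other way, with 1415 CPM in SCDi cells, against 1650.1 CPM in CTRL cells, at -0.22 (-0.27 to -0.18).

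**Figure D5:**
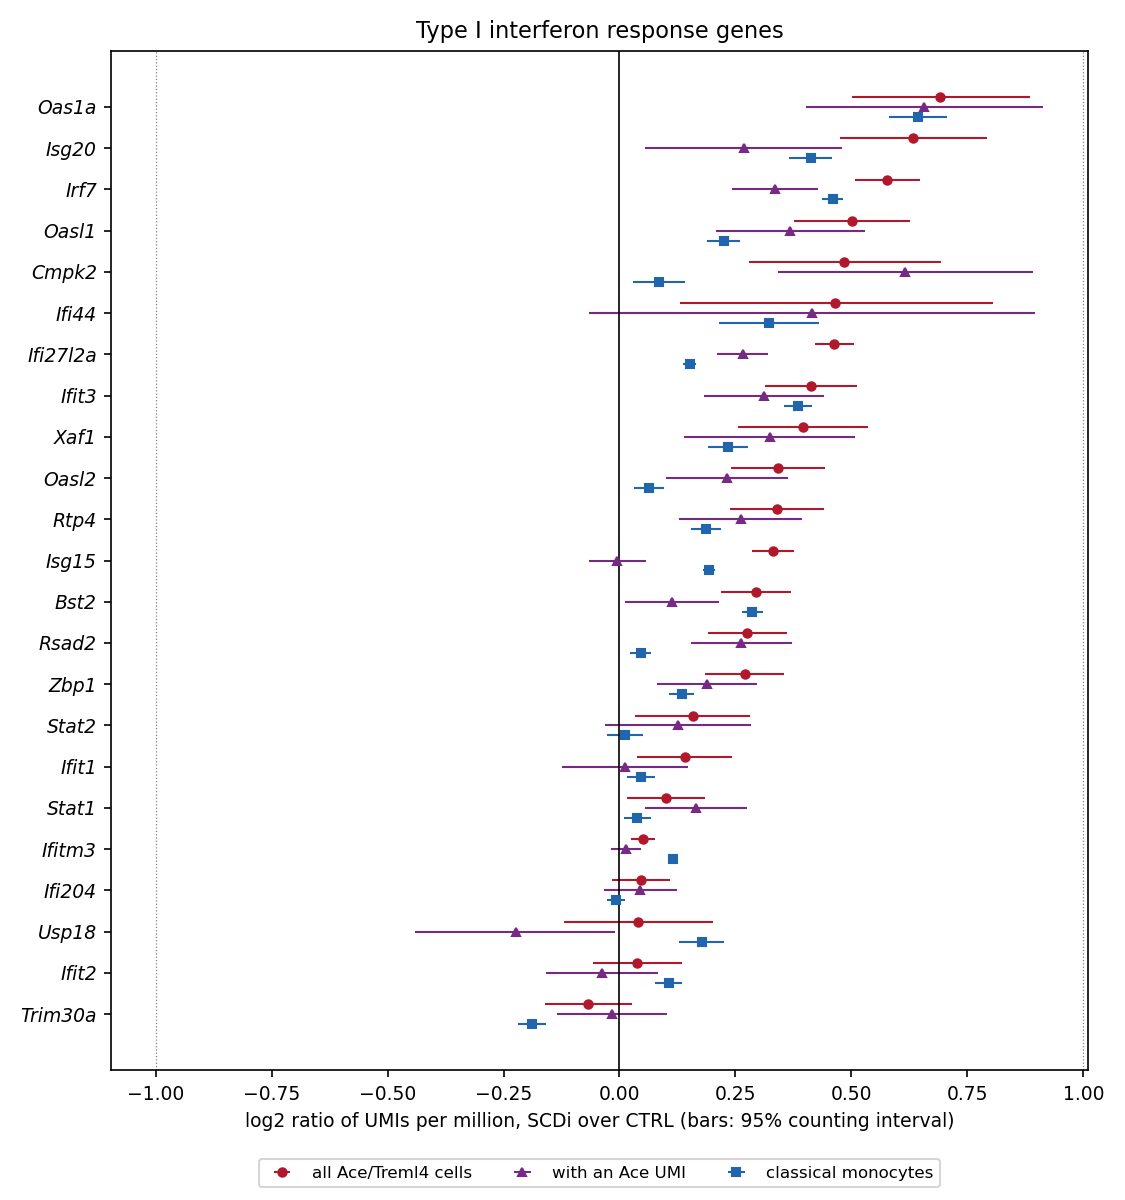
Log2 ratio of CPM, SCDi over CTRL (x axis), for 23 type I interferon genes in all Ace/Treml4 cells, in Ace-positive ones and in classical monocytes; bars are 95% counting intervals and dotted lines mark 2-fold. All genes but Trim30a lie right of 0 in all Ace/Treml4 cells, and none reaches 2-fold.

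Markers of other cells differed between the treatments as well. Of 15 macrophage markers, 10 were higher in SCDi, against 53.7% of all genes, and 7 among Ace-positive cells, against 55.2%. Summed over the 15, Ace/Treml4 cells held 9761 CPM in SCDi and 8698 CPM in CTRL. Over 11 microglia markers they held 436 CPM in SCDi and 609 CPM in CTRL, over 8 neutrophil markers 803 CPM in SCDi and 862 CPM in CTRL, and over 13 T, B and NK cell markers 51.9 CPM in SCDi and 30.3 CPM in CTRL. Counted per cell, at least 10 UMIs of microglia markers were found in 39 SCDi and 33 CTRL cells and at least 10 of neutrophil markers in 20 SCDi and 15 CTRL cells, so these sums and these numbers of cells ran in opposite directions. Their part in the differences above was not tested. In sums alone, fewer cells of a type and less RNA per cell cannot be told apart.

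Other gene groups were mixed. Of 20 inflammatory cytokines and chemokines, 9 were higher in SCDi, against 53.7% of all genes, with a median of -0.08. Il1b had 1682 CPM in SCDi cells, against 1970.0 CPM in CTRL cells, at -0.23 (-0.27 to -0.19), and Ccl5 502 CPM in SCDi cells, against 259 CPM in CTRL cells, at 0.95 (0.86 to 1.05). Of 18 immediate early and dissociation genes 3 were higher, against 53.7% of all genes, with a median of -0.18. The lowest were the heat shock genes Hspa1b and Hspa1a, and classical monocytes had the same list median. Of 16 cell cycle genes with at least 5 CPM 12 were higher with a median of 0.51, against 53.7% of all genes, and all 12 with that level in Ace-positive cells were higher, against 55.2%. These genes were low. The proliferation marker Mki67 had 17.5 CPM in SCDi cells, against 17.8 CPM in CTRL cells, and 1 CTRL cell held 42.9% of its CTRL UMIs. In Ace-positive cells Mki67 had 11.97 CPM in SCDi and 2.82 CPM in CTRL, at 2.04 (1.08 to 3.21), and in those without Ace 23.7 CPM in SCDi and 53.9 CPM in CTRL. Of 16 survival genes 8 were higher, against 53.7% of all genes. Bcl2, which protects from apoptosis, was at -0.50 (-0.67 to -0.33) and its relative Bcl2a1d at 0.45 (0.27 to 0.63). In lipid metabolism, 12 of 19 cholesterol synthesis genes were higher with a median of 0.16 and 10 of 15 fatty acid synthesis genes with 0.17. Of 22 genes of fatty acid uptake, droplets and oxidation, 10 were higher, with a median of -0.11. Over all genes the share higher in SCDi was 53.7%, not far from these counts. Sqle, an enzyme of cholesterol synthesis, had 10.2 CPM in SCDi cells, against 2.54 CPM in CTRL cells, at 1.98 (1.15 to 2.97). Fc receptor and phagocytosis genes had a median of 0.06, with Fcgr1, the high-affinity IgG receptor, at 0.56 (0.49 to 0.62).

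Values on both sides of the thresholds are as follows. Cells with exactly 1 of the 3 genes that met the rest of the rule, 1135 in SCDi and 686 in CTRL, held 12.8 CPM of Adgre4 in SCDi and 18.4 CPM in CTRL. Selected cells with exactly 2 genes held 103 CPM of Adgre4 in SCDi and 203 CPM in CTRL. The F13a1 limit removed 156 SCDi and 211 CTRL cells that had 2 of the 3 genes. Just outside it, 30 SCDi and 38 CTRL cells with 5 or 6 F13a1 UMIs held 181 CPM of Nr4a1 in SCDi and 238 CPM in CTRL. Just inside, 43 SCDi and 51 CTRL cells with 3 or 4 held 178 CPM in SCDi and 299.7 CPM in CTRL. After each cell was thinned to 2000 UMIs, Nr4a1 was detected in 38.7% of SCDi and 45.6% of CTRL Ace/Treml4 cells, and in 16.0% of SCDi and 15.9% of CTRL classical monocytes and 4.73% of SCDi and 11.99% of CTRL T cells.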

How the data were processed

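The files are raw UMI counts per gene and barcode in 4 droplet libraries (2 immune, 2 tumour), which the authors deposited as filtered matrices of 32285 genes made with Cell Ranger 7.1.0 on mm10, per the submitters' processing notes. The gene annotation used for counting and the use of intronic reads were not stated in the material used, and doublets were not removed here. The deposited barcodes held at least 500 UMIs. Ace/Treml4 cells and classical monocytes (without those that were also Ace/Treml4 cells) were selected by the rules given above. Their counts were summed per library and scaled to CPM. A log2 ratio adds 0.5 counts to each sum, and its 95% interval is the exact conditional binomial interval for 2 counts. Shares have exact Clopper-Pearson intervals, and differences of shares Newcombe intervals. A count of 0 allows up to 3 counts. All of these cover counting error in these libraries alone. Lists are described over members with at least 5 CPM in either group. Genes were named among those with at least 50 CPM in either group and a UMI in at least 10 cells, without mitochondrial, ribosomal, predicted and receptor-segment genes: the 10 highest and 10 lowest ratios of SCDi over CTRL, the 15 highest and 15 lowest of Ace/Treml4 cells over classical monocytes, the selecting and marker genes, the non-classical and classical lists, the desaturases, and the 2 highest and 2 lowest of each list. Isg15 and H2-Aa were chosen after their values were seen. The members and lists were chosen with earlier results of these data known. Python 3.11.15, numpy 2.4.6, scipy 1.17.1, pandas 2.3.3, scikit-learn 1.9.0 and matplotlib 3.10.9 were used, and the ratio and its interval were tested on simulated data. Values of some genes are not reported here. Promoters come from RefSeq on GRCm38.p6.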

Additional observations from a re-analysis of the deposited data

Results flagged for a closer look

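Among the genes reported here, 12 had counting intervals of the SCDi over CTRL ratio on opposite sides of 0 in Ace/Treml4 cells and in classical monocytes. With 1 library a treatment, the difference between the classes was not tested over mice.

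Pou2f2, the gene of the factor OCT2, had a log2 ratio of -0.13 in Ace/Treml4 cells and 0.26 in classical monocytes. Fcgr4 had -0.10 in Ace/Treml4 cells and 0.18 in classical monocytes. Lyz2, a lysozyme gene with a near-identical paralog, had -0.058 in Ace/Treml4 cells and 0.13 in classical monocytes. Among Ace-positive cells, Pou2f2 was at 0.02 and Fcgr4 at 0.09.

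The chemokine gene Ccl8 had 1.08 in Ace/Treml4 cells and -0.09 in classical monocytes, and Saa3, an acute-phase gene, 1.04 in Ace/Treml4 cells and -0.07 in classical monocytes. S100a8 had -0.24 in Ace/Treml4 cells and 1.08 in classical monocytes, and S100a9 -0.12 in Ace/Treml4 cells and 1.36 in classical monocytes. The S100a8 ratio in Ace/Treml4 cells was 4.05 with under 3 Ly6c2 UMIs, 1.26 with all 3 selecting genes, 0.68 with under 3 C1q UMIs, 1.44 as a mean over cells, -2.89 with an Ace UMI and -3.78 with both Ace and Treml4.

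The remaining 5 are lymphocyte genes at low levels in Ace/Treml4 cells, whose selection limits them. Skap1 had 2.63 in Ace/Treml4 cells and -0.43 in classical monocytes, Gzma 2.03 in Ace/Treml4 cells and -0.26 in classical monocytes, and Nkg7 1.87 in Ace/Treml4 cells and -0.47 in classical monocytes. Gimap6 had 1.36 in Ace/Treml4 cells and -0.55 in classical monocytes, and Satb1 0.65 in Ace/Treml4 cells and -0.56 in classical monocytes.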

How the results depend on the processing

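No paired analysis was possible because each treatment is 1 immune library. Counting error is the only error measured, and genes under 50 CPM in a class of 266 or 274 cells are imprecise. Using all deposited barcodes, a stricter barcode filter, scaling by the median of ratios or adding 5 counts changed the sign of 0 named genes. Removing the highest doublet scores took out 20 of the SCDi (7.52%) and 16 of the CTRL (5.84%) Ace/Treml4 cells. Of the classical monocytes outside the selection it took out 223 in SCDi (11.2%) and 242 in CTRL (14.7%). It changed the sign of 3 of 64 SCDi over CTRL gene ratios, Sparc (0.10) among them. Of 106 gene ratios of Ace/Treml4 cells over classical monocytes, 1 changed sign and 55 stayed within their counting interval. Signs of 16 of the 64 changed with Ly6c2 under 3, 16 after thinning, 15 with C1q under 3, 11 with an Ace UMI, 9 with all 3 genes and 9 with both Ace and Treml4. The larger changes came with other definitions of the cells or averages, and their cause was not tested. The settings that require an Ace UMI, both Ace and Treml4, no classical rule, few neutrophil UMIs, thinning before selection or a lymphocyte limit on classical monocytes were added after seeing the data.

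The difference in share, 0.18 points, was -0.54 with C1q under 3 UMIs and -0.53 with an Ace UMI. The log2 ratio of cells per classical monocyte, -0.32, was -0.77 with C1q under 3 UMIs, -0.68 with an Ace UMI, -0.64 with both Ace and Treml4, -0.19 with F13a1 at 0 and -0.25 outside the classical rule.

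The number of genes 2-fold higher in SCDi, 11, was 38 with all 3 genes, 18 with F13a1 at 0, 20 with Ly6c2 under 3, 17 with both Ace and Treml4, 22 at 20 CPM and 6 as a mean over cells. The number 2-fold lower, 6, was 13 with all 3 genes, 11 with Ly6c2 under 3, 10 after thinning, 16 at 20 CPM and 3 as a mean over cells. Against classical monocytes, the 47 genes 2-fold higher were 107 with all 3 genes, 74 with F13a1 at 0, 136 with Ly6c2 under 3, 109 with C1q under 3, 86 as a mean over cells, 83 with an Ace UMI, 118 with both Ace and Treml4, 71 outside the classical rule and 111 after thinning. The 29 genes 2-fold lower were 53 with all 3 genes, 135 with Ly6c2 under 3, 133 with C1q under 3, 45 as a mean over cells, 76 at 20 CPM, 54 outside the classical rule, 89 after thinning and 14 with classical monocytes held to the lymphocyte limit.

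Of genes 2-fold apart between SCDi and CTRL, these turned, on the log2 scale. Vcam1 was 1.93 with all 3 genes, 1.53 with an Ace UMI, 0.87 with both Ace and Treml4 and 1.36 after thinning. Saa3 was -3.98 with Ly6c2 under 3, -1.48 with C1q under 3, -0.70 with an Ace UMI, -1.36 outside the classical rule, -1.11 after thinning and -0.012 as a mean over cells. Ccl8 was -2.11 with Ly6c2 under 3, -1.10 with C1q under 3 and -0.94 after thinning. Lpl was -0.25 with C1q under 3, and Ccl7 -0.63 after thinning.

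Against classical monocytes, S100a8 was -1.31 in SCDi and -1.48 in CTRL with all 3 genes, -1.29 in SCDi with an Ace UMI, -1.82 in SCDi with both Ace and Treml4, -0.10 in CTRL with Ly6c2 under 3, and -3.66 in SCDi and -2.85 in CTRL with few neutrophil UMIs. S100a9 was -3.61 in SCDi and -1.49 in CTRL with all 3 genes, -1.01 in SCDi with an Ace UMI, -4.02 in SCDi with both Ace and Treml4, -1.30 in CTRL with Ly6c2 under 3, and -5.14 in SCDi and -4.07 in CTRL with few neutrophil UMIs. With the lymphocyte limit, Tnfrsf4 was 0.73 in SCDi and 1.83 in CTRL, and Prkca 0.019 in CTRL. Gzma was 0.10 in CTRL after thinning.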
